A study of Rattus norvegicus with 18 samples.

Results

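The genes described here are 3 cytochrome P450 genes of rat liver, Cyp1a1 (ENSRNOG00000019500), Cyp1a2 (ENSRNOG00000016173) and Cyp2e1 (ENSRNOG00000012458). They were chosen by Ensembl ID, and 3 of 3 IDs were found among the 30560 gene IDs of the count files. The names came with the IDs in the definition of the gene set, since neither the files nor the RefSeq table used here pairs Ensembl IDs with symbols, so each value below is that of the ID and its name was not checked. Liver RNA came from 18 adult female rats, about one year old, that had received vitamin D at 0, 1000 or 5000 U/kg for 3 months (6 rats per dose), and the labels name neither the strain nor whether the kg is of body weight or of diet. Each library was one rat, and the QuantSeq 3' kit used reads the 3' end of polyadenylated transcripts. Counts from such libraries follow transcript number and were not divided by gene length.

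Cytochrome P450 enzymes of the liver are haem proteins of the endoplasmic reticulum that oxidise drugs, toxins and endogenous lipids with electrons passed on by P450 reductase. In rodents CYP1A2 and CYP2E1 are made mostly by the hepatocytes around the central vein, while CYP1A1 is scarce until the aryl hydrocarbon receptor (AHR), a ligand-activated transcription factor, is switched on by compounds such as dioxins and polycyclic aromatics. CYP1A2 handles caffeine and aromatic amines and shares AHR control with CYP1A1. CYP2E1 oxidises ethanol, acetone and paracetamol and is known for regulation by fasting, insulin and protein stabilisation.

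The RefSeq gene table (assembly GRCr8) listed Cyp1a1 and Cyp1a2 as neighbours on chromosome 8 with 0 genes between them, and Cyp2e1 on chromosome 1. The RefSeq promoter table (GRCr8, 250 bases before to 50 after each start) held Cyp1a2 and Cyp2e1, and had no entry for Cyp1a1. The windows below show where these 2 promoters carry the same core promoter letters, TATAAA, in capitals, each 30 bases long and written 5′ to 3′ on the strand of the gene. The Cyp1a2 window is chr8:66978171-66978200 (minus strand), with the capitals starting 39 bases before the annotated start, and the Cyp2e1 window is chr1:205269906-205269935 (plus strand), with the capitals starting 49 bases before it.
Cyp1a2: aggaggtggtatTATAAAaggccccttgtc
Cyp2e1: tcaaggatacatTATAAAatctttgtttct
TATAAA on the gene's strand was found in 8.80% of the 33469 promoters of the table. GCGTG, the core letters bound by AHR and its partner ARNT, was found 0 times in either promoter on both strands, as was TNGCGTG, which contains it. Of all promoters of this length, 29.7% held GCGTG and 4.89% held TNGCGTG. The absence of these letters from the windows says nothing about binding elsewhere.

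Gene counts totalled 6787033 to 12555457 per library, and 13422 to 15356 genes had at least 1 read. A pair of libraries stood apart from the rest in earlier results of these data, replicate 2 of the undosed rats and replicate 5 at 1000 U/kg, so dose differences and correlations below are also given for the 16 other libraries. Of all rows of a file, 7.34% to 11.8% were reads outside genes, 2.54% to 3.84% were reads shared between genes (overlapping more than 1) and 8.45% to 14.1% aligned at several places. The lists fixed for AHR targets, zonation, P450 partners, liver receptors and cell types are by symbol, so 0 of their genes could be found among the IDs. The tissue and the zone of these transcripts were therefore not checked against other markers, and zones cannot be resolved in whole-liver RNA.

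Cyp1a1, the AHR-induced member, was at the edge of detection in all 3 dose groups. It had 20 reads in all, of 165361056 gene counts, or 0.121 CPM (CPM, counts scaled to a common library total; 95% exact Clopper-Pearson interval 0.0739 to 0.187). It had at least 1 read in 10 of 18 rats and 0 reads in 8. The undosed rats held 0 to 3 reads each, those at 1000 U/kg 0 to 4 and those at 5000 U/kg 0 to 5. The ranges of the 3 doses overlapped from 0 upwards, and the rats with most reads were replicate 4 of the undosed group, replicate 2 at 1000 U/kg and replicate 3 at 5000 U/kg.

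Summed over each dose, Cyp1a1 had 6 reads in undosed rats (0.103 CPM, interval 0.0378 to 0.224), 6 at 1000 U/kg (0.103 CPM, 0.0376 to 0.223) and 8 at 5000 U/kg (0.165 CPM, 0.0712 to 0.325). These intervals overlap and cover counting error only. In the 8 rats with 0 reads, 3 reads would have given 0.275 to 0.423 CPM, so a difference below that was not detectable at this depth in a single rat. Cyp1a1 fell below the filter on low counts and was not in the fitted model, so its scaled CPM were set against each other between doses by two-sided exact permutation tests. Between 1000 and 0 U/kg the means differed by 0.0042 CPM (p = 0.935, exact permutation test). Rats at 5000 U/kg averaged 0.077 CPM more than undosed rats (p = 0.760, exact permutation test) and 0.073 CPM more than those at 1000 U/kg (p = 0.652, exact permutation test), and the adjusted p was 0.935 in each. Replicate 3 at 5000 U/kg held 5 of the 8 reads of its dose, and without it the differences at 5000 U/kg were −0.031 CPM against 0 and −0.036 CPM against 1000 U/kg. In the 16 other libraries the differences of the 3 comparisons were 0.0051, 0.057 and 0.052 CPM, in the order above (exact permutation p of 0.929, 0.877 and 0.773).

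Cyp1a2, the constitutive member of the same subfamily, was among the abundant liver transcripts at every dose. Its rank by read count within a library ran from 28 to 108, with a median of 44.5, and it took 0.0661% to 0.340% of a library's gene counts. Levels of Cyp1a2 and Cyp2e1 below are CPM scaled by the TMM method (trimmed mean of M-values). In undosed rats Cyp1a2 ran from 1618 CPM in replicate 5 over a median of 2428 to 3815 CPM in replicate 2. At 1000 U/kg it ran from 769 CPM in replicate 5 over a median of 2433 to 2665 CPM in replicate 3. At 5000 U/kg it ran from 1530 CPM in replicate 5 over a median of 2627 to 2853 CPM in replicate 2. The 3 ranges overlapped, and the lowest and the highest of all 18 values belonged to the 2 libraries that stand apart.

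Cyp1a2 averaged 2560 ± 733 CPM without vitamin D (SD, n = 6), 2123 ± 719 CPM on 1000 U/kg and 2456 ± 505 CPM on the higher dose. The order of means, 0, 5000 and 1000 U/kg, held no neighbours that differed beyond their spread, while the medians came in the order of the dose. Between 1000 and 0 U/kg the log2 fold change of Cyp1a2 was −0.27 with an SE of 0.28 (edgeR adjusted p = 0.860), a fold of 0.829 with a 95% interval of 0.551 to 1.25. For 5000 against 0 U/kg it was −0.060 (SE 0.28, edgeR adjusted p = 0.99996), a fold of 0.959 with an interval of 0.637 to 1.44. For 5000 against 1000 U/kg it was 0.21 (SE 0.28, edgeR adjusted p = 0.888), a fold of 1.16 with an interval of 0.768 to 1.74. In the 16 other libraries the log2 fold changes were 0.063 (SE 0.19), 0.094 (SE 0.19) and 0.031 (SE 0.19), so the sign of both comparisons with undosed rats turned. In bulk RNA, fewer cells of a type and less RNA per cell cannot be told apart.

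Cyp2e1, the ethanol-oxidising member, had about the mean level of Cyp1a2 and a far wider spread between rats. It took 0.0187% to 0.534% of a library's gene counts, and its rank ran from 22 to 586. In undosed rats Cyp2e1 ran from 210 CPM in replicate 2 over a median of 2504 to 5592 CPM in replicate 4. At 1000 U/kg it ran from 575 CPM in replicate 5 over a median of 2271 to 3906 CPM in replicate 4. At 5000 U/kg it ran from 204 CPM in replicate 2 over a median of 1653 to 3309 CPM in replicate 4. Each dose thus held both low and high rats, and the ranges overlapped over most of their length.

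The highest Cyp2e1 level was 27.4 times the lowest over the 18 rats, where the same ratio for Cyp1a2 was 4.96. Counting error was small beside this: the library with fewest Cyp2e1 reads held 1409, a counting error of 2.66%. In 4 of 18 rats Cyp2e1 was under 1000 CPM, 1 undosed, 1 at 1000 U/kg and 2 at 5000 U/kg. These were the 2 libraries that stand apart and replicates 1 and 2 at 5000 U/kg, at 732 and 204 CPM.

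**Figure D1:**
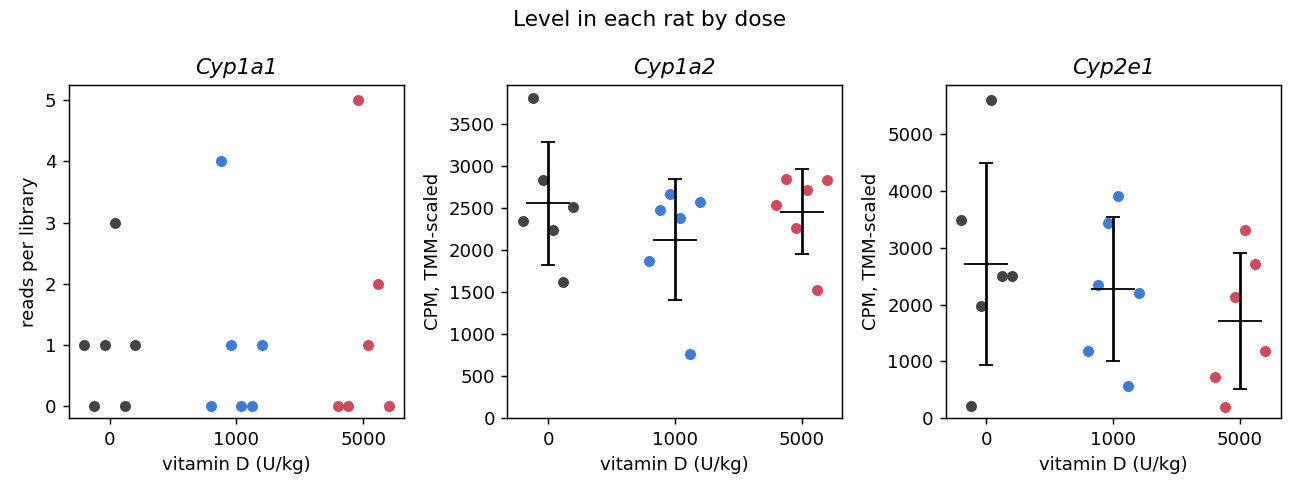
Level of each gene in every rat by dose: reads per library for Cyp1a1 (left) and TMM-scaled CPM for Cyp1a2 (middle) and Cyp2e1 (right). Points are rats (n = 6 per dose), dashes with bars are mean ± SD, and Cyp1a1 lies at 0 to 5 reads while Cyp2e1 spans 204 to 5592 CPM.

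Cyp2e1 averaged 2712 ± 1776 CPM without vitamin D (SD, n = 6), 2274 ± 1271 CPM on 1000 U/kg and 1710 ± 1203 CPM on the higher dose. Means and medians both came in the order of the dose, lowest at 5000 U/kg, and no neighbours in that order differed beyond their spread. Between 1000 and 0 U/kg the log2 fold change of Cyp2e1 was −0.25 with an SE of 0.63 (edgeR adjusted p = 0.948), a fold of 0.838 with a 95% interval of 0.338 to 2.08. For 5000 against 0 U/kg it was −0.67 (SE 0.63, edgeR adjusted p = 0.99996), a fold of 0.631 with an interval of 0.253 to 1.57. For 5000 against 1000 U/kg it was −0.41 (SE 0.63, edgeR adjusted p = 0.901), a fold of 0.752 with an interval of 0.302 to 1.87. These intervals hold both no change and changes of more than 2-fold. The 5000 U/kg difference was larger with another tool, for a cause that was not tested: limma voom with sample quality weights gave −1.02 (SE 0.46, limma adjusted p = 0.564) against 0 and −1.07 (SE 0.46, limma adjusted p = 0.216) against 1000 U/kg. In the 16 other libraries edgeR gave −0.28 (SE 0.54), −0.90 (SE 0.51) and −0.62 (SE 0.51) in the order of the comparisons above, with adjusted p of 0.99976, 0.569 and 0.792. The 2 libraries left out there had the lowest Cyp2e1 of their doses, at 210 and 575 CPM. The rat at 204 CPM on 5000 U/kg was kept. Leaving them out raises the means of the undosed and 1000 U/kg groups, so the larger differences at 5000 U/kg follow from that choice. With single libraries left out, 5000 against 0 U/kg ranged from −0.96 to −0.35 and 5000 against 1000 U/kg from −0.71 to −0.18.

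Of the 2 members fitted, 0 passed an adjusted p of 0.05 in any of the 3 comparisons or in the F test over the 3 groups (edgeR adjusted p = 0.925 for Cyp1a2 and 0.920 for Cyp2e1). Over all 11268 genes tested, 0.00% were called in each of the 4 tests. An edgeR p under 0.05 before adjustment was found for 7.45% of genes at 1000 U/kg and 3.55% at 5000 U/kg, each compared with undosed rats, for 5.86% between both doses and for 5.59% in the test over all groups, and 0 of the 2 members were among them. All genes tested had a median log2 fold change of −0.0046, −0.080 and −0.040 in these pairs of groups, in that order. DESeq2 and limma voom also called neither member, and over all genes DESeq2 called 1 in the test of any dose. Before adjustment, Cyp2e1 had a limma voom p of 0.0406 for 5000 against 0 and 0.0320 for 5000 against 1000 U/kg. Of the 11268 genes, 930 and 2293 had a limma voom p under 0.05 in these comparisons.

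**Figure D2:**
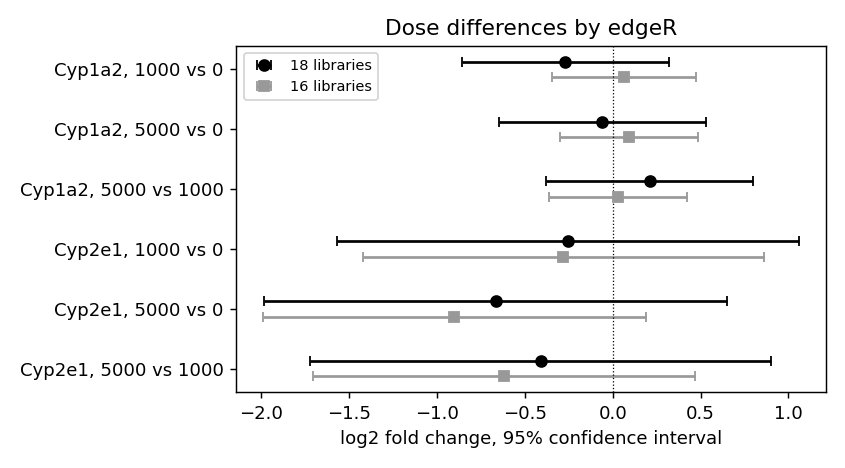
Log2 fold change (horizontal axis) with its 95% confidence interval for Cyp1a2 and Cyp2e1 in each dose comparison by edgeR, with all 18 libraries (circles) and with the 16 left after removing the 2 that stand apart (squares). All 12 intervals hold 0, and those of Cyp2e1 are the wider ones.

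The spread of Cyp2e1 was set against that of other genes, using the SD of log2 CPM around the dose means. It was 1.42 for Cyp2e1 and 0.50 for Cyp1a2, where 7721 genes averaging 5 CPM or more had a median of 0.57. Of these genes, 95.6% had a smaller SD than Cyp2e1 and 39.5% a smaller SD than Cyp1a2. Among the 99 genes averaging 1000 CPM or more, whose median SD was 0.66, Cyp2e1 ranked 5 from the top and Cyp1a2 ranked 76. These are positions within these libraries and were not tested.

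No covariation of Cyp1a2 and Cyp2e1 over the 18 rats passed the test. Pearson's r of their log2 CPM was −0.073 (permutation p = 0.767, adjusted p = 0.826 over the 3 gene pairs and both measures) and Spearman's rho was −0.35 (permutation p = 0.159, adjusted p = 0.317). Within the undosed rats r was −0.74 (exact permutation p = 0.101, n = 6), at 1000 U/kg 0.91 (exact permutation p = 0.0222, n = 6) and at 5000 U/kg −0.49 (exact permutation p = 0.307, n = 6). None of these passed adjustment over the pairs within its dose (adjusted p of 0.203, 0.133 and 0.307, exact permutation tests), and the difference between doses was not tested. Replicate 5 at 1000 U/kg was the lowest of its dose in both genes, at 769 CPM of Cyp1a2 and 575 CPM of Cyp2e1, and without it r over the other 17 rats was −0.49 (permutation p = 0.0480). Leaving out replicate 2 of the undosed rats instead gave 0.17 (permutation p = 0.496), and without replicate 2 at 5000 U/kg it was 0.022 (permutation p = 0.929), so the sign of r depended on single rats. In the 16 other libraries r was −0.26 (permutation p = 0.326) and rho −0.43 (permutation p = 0.103). Without the 2 rats farthest from the median of Cyp1a2, r was −0.51 (permutation p = 0.0501) and rho −0.53 (permutation p = 0.0368).

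The ratio of the 2 genes within a library does not depend on scaling. Cyp1a2 had more reads than Cyp2e1 in 11 of 18 rats and fewer in 7. The log2 ratio of Cyp1a2 to Cyp2e1 ran from −1.32 to 4.18 with a median of −0.28 in undosed rats, from −0.71 to 0.65 with a median of 0.15 at 1000 U/kg and from −0.82 to 3.81 with a median of 0.68 at 5000 U/kg. The 2 highest ratios were those of replicate 2 of the undosed rats, 18.1-fold, and of replicate 2 at 5000 U/kg, 14.0-fold. In both of these rats Cyp1a2 was the highest of its dose and Cyp2e1 the lowest, in TMM-scaled CPM. For Cyp1a2 at 5000 U/kg this depends on scaling. By share of gene counts, replicate 6 of that dose was higher, at 0.283% against 0.278% in replicate 2. The mean log2 ratio was 0.36 ± 1.97 (SD, n = 6), 0.051 ± 0.51 and 0.97 ± 1.70 in the order of the doses. It differed by −0.31 between 1000 and 0, by 0.61 between 5000 and 0 and by 0.92 between 5000 and 1000 U/kg (exact permutation p of 0.879, 0.556 and 0.249, adjusted p of 0.879, 0.834 and 0.747). Without the 2 libraries that stand apart they were 0.38, 1.37 and 0.997 (exact permutation p of 0.365, 0.121 and 0.253). Leaving out replicate 2 at 5000 U/kg alone gave 0.044 for 5000 against 0 (exact permutation p = 0.972) and 0.36 for 5000 against 1000 U/kg (exact permutation p = 0.502).

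**Figure D3:**
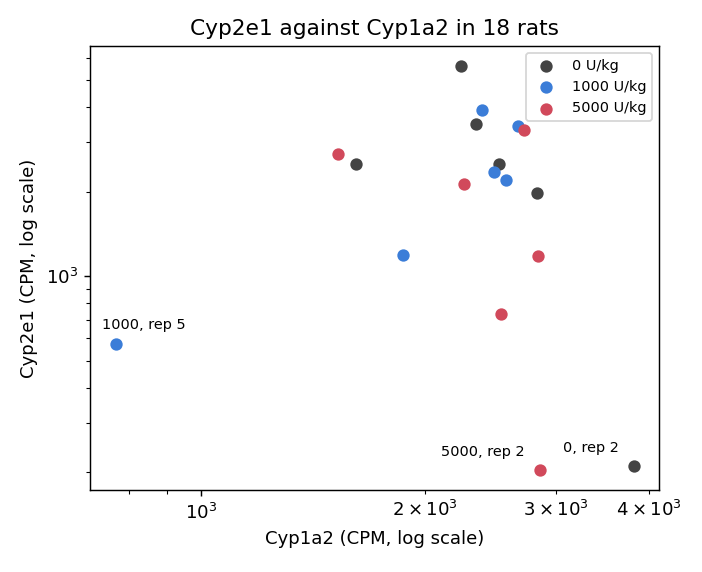
Cyp2e1 against Cyp1a2 in TMM-scaled CPM, both axes on a log scale, one point per rat and one colour per dose. Replicate 2 of the undosed rats and replicate 2 at 5000 U/kg lie at the bottom right with high Cyp1a2 and 204 to 210 CPM of Cyp2e1, and replicate 5 at 1000 U/kg lies at the left, low in both.

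With at most 5 reads in a rat, the covariation of Cyp1a1 is given as values and not read as a finding. Its r with Cyp1a2 was 0.054 (permutation p = 0.826, adjusted p = 0.826; rho −0.19, permutation p = 0.448). Its r with Cyp2e1 was 0.49 (permutation p = 0.0379, adjusted p = 0.114) and rho was 0.53 (permutation p = 0.0262, adjusted p = 0.114). Neither passed adjustment. The r with Cyp2e1 was 0.66 without the 2 rats farthest from the median of Cyp1a1 (adjusted p = 0.0166, permutation test) and 0.41 without the 2 libraries that stand apart (permutation p = 0.110). Within the doses it was 0.71, 0.37 and 0.59, with exact permutation p of 0.1, 0.483 and 0.233. On deviations from the dose means, r of Cyp1a1 with Cyp2e1 was 0.54 (adjusted p = 0.0663, permutation test). The rho of these deviations was 0.62 and passed adjustment (adjusted p = 0.0415, permutation test).

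Measures of the libraries moved with both abundant members. Of 8 relations between Cyp1a2 or Cyp2e1 and the depth or the shares of unassigned reads, that of Cyp2e1 with the share of reads shared between genes had the largest r in size. Its r was −0.73 (permutation p = 0.00066, adjusted p = 0.0106) and rho −0.63 (permutation p = 0.00648, adjusted p = 0.0207). Within the doses r was −0.96, −0.17 and −0.68. Without the 2 libraries farthest from the median of that share, r was −0.43 (permutation p = 0.0974) and rho −0.47. These were replicate 2 of the undosed rats and replicate 2 at 5000 U/kg, the rats of lowest Cyp2e1 (210 and 204 CPM). The relation was thus weaker without those libraries but kept its sign. With the pair that stands apart left out instead, r was −0.78 (permutation p = 5.0e-05). The part of this share in the low Cyp2e1 levels was not tested.

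**Figure D4:**
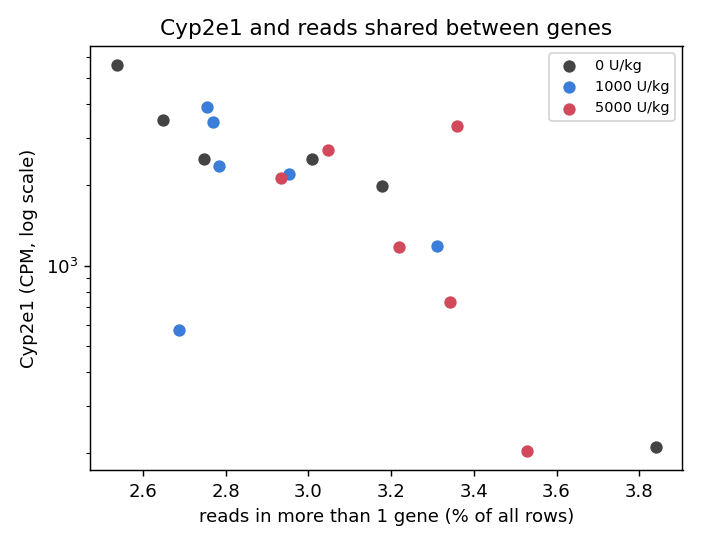
Cyp2e1 in TMM-scaled CPM (log scale) against the share of reads overlapping several genes, in percent of all rows of a file, one point per rat and one colour per dose. Rats with a higher share lie lower, with r = −0.73 on log2 CPM, and the undosed rat at 3.84% is near the bottom.

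Cyp1a2 was higher where the share of reads outside genes was higher (r = 0.64, permutation p = 0.00464, adjusted p = 0.0197; rho 0.45, adjusted p = 0.127) and lower where the share aligned at several places was higher (r = −0.63, permutation p = 0.00440, adjusted p = 0.0197; rho −0.50, adjusted p = 0.0869). Without the 2 libraries farthest from the median of each share, these were 0.26 and −0.40 (permutation p of 0.323 and 0.125). In the 16 other libraries they were 0.26 (permutation p = 0.323) and −0.53 (permutation p = 0.0357). For the share outside genes the 2 farthest libraries are the pair that stands apart, so both checks are the same one. The first relation thus rests on those 2 libraries, while the second was negative in each of these sets. Within the doses they were 0.88, 0.85 and −0.51 for the first share and −0.52, −0.59 and −0.81 for the second. With the share of reads shared between genes, Cyp1a2 had the opposite sign to Cyp2e1, with r = 0.50 (permutation p = 0.0341, adjusted p = 0.0869) and rho = 0.65 (permutation p = 0.00492, adjusted p = 0.0197). That r was 0.32 without the 2 libraries farthest from the median of the share (permutation p = 0.235) and 0.28 in the 16 other libraries (permutation p = 0.291), and within the doses it was 0.83, 0.18 and 0.66. Depth had an r of −0.21 with Cyp1a2 and 0.13 with Cyp2e1 (adjusted p of 0.544 and 0.702, permutation tests). In the 16 other libraries these were −0.067 and 0.43 (permutation p of 0.803 and 0.0999). Cyp2e1 had an r of −0.27 with the share outside genes and 0.14 with the share aligned at several places (adjusted p of 0.452 and 0.702, permutation tests). In the 16 other libraries these were −0.16 and 0.52 (permutation p of 0.553 and 0.0319). Within the doses the first was −0.92, 0.87 and −0.16. The part of these measures in the levels of Cyp1a2 and Cyp2e1 was not tested.

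The gene whose log2 CPM over the 18 libraries was most like that of Cyp2e1, among 7719 other genes averaging 5 CPM or more, was ENSRNOG00000020730, with r = 0.97 as a description. It ran from 10.1 CPM in replicate 2 of the undosed rats to 103 CPM in replicate 4 of the same group, the rat of highest Cyp2e1. Its means were 57.9 ± 30.5, 56.3 ± 18.7 and 50.5 ± 28.5 CPM (SD, n = 6) in the order of the doses. Without the 2 libraries that stand apart, r was still 0.97. In all, 576 of these genes had an r above 0.8 with Cyp2e1. The gene most like Cyp1a2 was ENSRNOG00000059519, with r = 0.92, and 0.72 without the 2 libraries that stand apart. It ran from 35.0 CPM in replicate 5 at 1000 U/kg to 341 CPM in replicate 2 of the undosed rats, the same libraries that bounded Cyp1a2, and 74 genes had an r above 0.8 with Cyp1a2. The files do not pair these IDs with names.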

How the data were processed

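The deposited values were raw counts of reads per Ensembl gene, 1 file per rat. The submitters' processing notes name FastQC, STAR, HTSeq and DESeq2. The tools' versions, genome build, annotation and strandedness: not given in the sources used here. Counts of overlapping genes are therefore uncertain. Reads aligned at several places went to no gene, so counts of near-identical genes are uncertain too. Library sizes left out the 5 HTSeq summary rows.

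A model with the 3 dose groups was fitted by edgeR 4.0.16 (R 4.3.3, default filter by group, TMM, robust quasi-likelihood) to all 18 libraries and 11268 genes, with Benjamini-Hochberg adjustment over those genes and a threshold of 0.05. It was tested on simulated data. Cyp1a1 did not pass the filter, so exact permutation tests over 924 splits replaced the planned edgeR test. The planned ratio of Cyp1a1 to Cyp1a2 was not run because 8 libraries held 0 Cyp1a1 reads. Correlations used log2 CPM with a prior count of 2 and 100000 permutations, or all orders within 6 rats. The genes named were the members and, for each fitted member, the gene of highest r. The search for TATAAA was chosen after the promoters were seen. Alternatives were DESeq2 size factors, total counts, no filter, DESeq2 1.42.0, limma 3.58.1, a prior count of 0.5, the replicate number as a block, and libraries left out. The members, lists and the pair of libraries left out were chosen with earlier results of these data known. Libraries of a dose differed by more than sampling noise in all 45 pairs. Clopper-Pearson intervals and limits from 3 reads cover counting error only, since PCR copies cannot be recognised in the files. Intervals of edgeR fold changes include the spread between rats.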

Additional observations from a re-analysis of the deposited data

Results flagged for a closer look

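Of 12 groups of 6 values checked, 3 held a rat whose gap to the nearest other rat exceeded Dixon's limit, where chance gives about 0.6. That rate assumes normally distributed values, which counts of 0 to 5 reads are not, so it does not hold for Cyp1a1. The groups also share libraries and genes, so the excess is no test. Replicate 2 at 1000 U/kg had 0.398 CPM of Cyp1a1, 4 reads, where the next rat of the dose had 0.131 CPM. Replicate 3 at 5000 U/kg had 0.720 CPM of Cyp1a1, 5 reads, where the next had 0.224 CPM. Replicate 2 of the undosed rats had a log2 ratio of Cyp1a2 to Cyp2e1 of 4.18, where the next had 0.52.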

How the results depend on the processing

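Over 22 results, 436 of 459 values under an alternative kept their direction and their side of the threshold. Of the rest, 20 changed sign, 2 passed the threshold and 1 count moved. Correlations are counted here by r only. The 459 include counts of genes called and adjusted p of the tests of any dose. Those have no direction and could not change sign, so the share of directions kept is lower than these numbers give. The changes of sign were in values that passed no threshold with all libraries, and their cause was not tested. Without the 2 libraries that stand apart, the log2 fold change of Cyp1a2 went to 0.063 at 1000 and 0.094 at 5000 against 0 U/kg, r of Cyp1a1 with Cyp1a2 to −0.079, and the log2 ratio of Cyp1a2 to Cyp2e1 at 1000 against 0 U/kg to 0.38. Cyp2e1 at 1000 against 0 U/kg was 0.045 with limma voom weights. With the replicate number as a block it was 0.091, and the block changed no other direction and no call. The labels do not say that a number marks a litter or batch, so the numbers were read as names only. Of 18 same-numbered pairs, 11 correlated over 0.1 (−0.45 to 0.71). Pairs of different numbers were not computed, so these values cannot tell whether a number marks a shared batch, which was not tested. With total gene counts, r of Cyp1a2 with Cyp2e1 was 0.048. The r of Cyp1a1 with Cyp2e1 was 0.66 without the 2 rats farthest from the median and then passed adjustment. DESeq2 called 1 gene in the test of any dose. With single libraries left out, the Cyp1a1 difference ranged from −0.055 to 0.034 CPM (1000 against 0), −0.031 to 0.11 (5000 against 0) and −0.036 to 0.13 (5000 against 1000 U/kg). The log2 fold change of Cyp1a2 at 5000 against 0 U/kg ranged from −0.16 to 0.070 and that of Cyp2e1 at 1000 against 0 U/kg from −0.50 to 0.079. The r ranged from −0.19 to 0.15 (Cyp1a1 with Cyp1a2), 0.45 to 0.59 (Cyp1a1 with Cyp2e1) and −0.49 to 0.17 (Cyp1a2 with Cyp2e1). That of Cyp1a1 with Cyp2e1 passed adjustment only without replicate 3 at 5000 U/kg. Its rho also passed without replicate 4 at 1000 U/kg (rho 0.67, adjusted p = 0.0294, permutation test). The log2 ratio ranged from −0.65 to 0.45 (1000 against 0), 0.044 to 1.37 (5000 against 0) and 0.36 to 1.28 (5000 against 1000 U/kg). Without a filter, Cyp1a1 had log2 fold changes of 0.043 (SE 1.25), 0.71 (SE 1.19) and 0.67 (SE 1.19) by edgeR. Counts of 0 to 5 reads limit the precision of every Cyp1a1 value.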

Other observations

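The highest Cyp2e1 level of each dose was in the rat numbered 4, at 5592, 3906 and 3309 CPM in the order of the doses, and the lowest was in replicate 2, 5 and 2. This was noticed after the values were seen and was not tested.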
